A study of Homo sapiens with 4 samples.

Results

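The transcripts of 10 long noncoding and microRNA host genes were followed in THP1 cells after transfection with a miR-511-5p mimic. The genes were MALAT1, NEAT1, GAS5, SNHG1, SNHG3, MIR155HG, MIR17HG, H19, MEG3 and HOTAIR. They were chosen with earlier results of these data known. All probes annotated with these names were taken, whatever their values. The members made up 11 of the 34127 probes and 10 of the 27193 gene names on the array, with a pair of probes for MEG3 and 1 for each other gene. THP1 is an established human monoblastic leukaemia line. The cells received 30 nM of the miR-511-5p mimic or of the negative control #1 mimic once, were kept in low-serum DMEM/Ham's medium, and were harvested on day 2. Each treatment was measured in 2 independent experiments, which gave 4 single-colour Agilent arrays, all on 1 slide with the same scan time. The cells were not compared with untransfected cells here, so each difference is one between mimics. In bulk RNA such as this, fewer cells that express a transcript and less of it per cell cannot be told apart.

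Long noncoding RNAs act without being translated, often by holding proteins together or by guiding them. MALAT1 lies in nuclear speckles, and NEAT1 is the scaffold of the paraspeckles. GAS5, SNHG1 and SNHG3 carry small nucleolar RNAs (snoRNAs) in their introns, and the spliced products of GAS5 and SNHG1 are known targets of nonsense-mediated decay. MIR17HG and MIR155HG are primary transcripts from which microRNAs are cut. H19 and MEG3 are imprinted and expressed from the maternal chromosome, and HOTAIR is transcribed from the HOXC cluster and known for its binding to Polycomb repressive complex 2.

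A mature microRNA recognises its targets mainly through its seed, bases 2 to 8. The mimic is shown with the microRNAs of the detected hosts, because the seed tells which of them could share targets with it. The sequences are from RefSeq (GRCh38.p14), 5′ to 3′, and the capitals mark the seed.
hsa-miR-511-5p: gUGUCUUUugcucugcaguca
hsa-miR-17-5p: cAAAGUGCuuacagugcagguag
hsa-miR-20a-5p: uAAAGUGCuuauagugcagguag
hsa-miR-18a-5p: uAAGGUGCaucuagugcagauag
hsa-miR-19a-3p: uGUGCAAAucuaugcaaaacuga
hsa-miR-19b-3p: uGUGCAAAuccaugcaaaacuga
hsa-miR-92a-3p: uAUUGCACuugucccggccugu
hsa-miR-155-5p: uUAAUGCUaaucgugauagggguu
hsa-miR-770-5p: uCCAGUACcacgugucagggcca
The 6 microRNAs of MIR17HG carried 4 different seeds, with miR-17-5p and miR-20a-5p sharing one and miR-19a-3p and miR-19b-3p another. With miR-155-5p of MIR155HG, miR-770-5p of MEG3 and miR-675-5p of H19, 9 mature microRNAs with 7 seeds were matched to 4 hosts, and all 9 lay inside their host gene. None of the 9 (0) had the seed of miR-511-5p. The arrays measured the host transcripts, not these mature microRNAs.

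The probes are 60 bases long, and 4 of them are shown, the MEG3 pair because its results differ by probe, and MALAT1 and GAS5 because they share the letters marked in one of that pair. Capitals mark AATAAA, the usual polyadenylation signal, searched on the probe strand as printed.
MALAT1 (chr11:65272873-65272932, plus strand): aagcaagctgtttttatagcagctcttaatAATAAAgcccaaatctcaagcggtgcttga
GAS5 (chr1:173833049-173833108, minus strand): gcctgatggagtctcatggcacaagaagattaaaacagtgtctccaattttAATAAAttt
MEG3 upstream (chr14:101295974-101296033, plus strand): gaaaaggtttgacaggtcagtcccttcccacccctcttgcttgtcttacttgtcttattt
MEG3 downstream (chr14:101327286-101327345, plus strand): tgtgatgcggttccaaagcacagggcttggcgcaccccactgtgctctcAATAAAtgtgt
Positions are those of the scanner files, on hg19. AATAAA stood in 3 of the 11 member probes and in 7.67% of all 34127 probes. The letters AAAGACA, which pair with the seed of miR-511-5p, stood in 0 of the 11 and in 0.97% of all probes. This covers only the 60 bases of each probe and says nothing of the rest of a transcript.

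Of the 11 probes, 9 from 8 genes gave signal well above background on each of the 4 arrays, and these were tested. H19 and HOTAIR did not reach that level on any array. The processed intensity of the H19 probe (chr11:2016674-2016733) was 3.45 and 3.15 with the miR-511 mimic and 2.86 and 3.11 with the control, in experiments 1 and 2. That of the HOTAIR probe (chr12:54356661-54356720) was 2.76 and 2.58 with the miR-511 mimic and 2.19 and 3.98 with the control. These values carry no measurable level, so no fold is given for either gene.

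None of the 9 tested probes (0 of 9) passed an unadjusted p below 0.05 in limma, where 2.2% of all 22638 tested probes did. Without the miR-511 array of experiment 2, which leaves 1 array in that treatment, the log2 difference of NEAT1 was 0.41. With the experiment as a replicate block 1 of 9 passed that threshold, the downstream MEG3 probe, against 3.95% of all tested probes. No probe on the array passed after Benjamini-Hochberg adjustment, and the adjusted p of all 9 was 1. The 2 miR-511 arrays lay clear of the 2 control arrays for 4 of 9 members, against 25.7% of all tested probes. These were MALAT1, MIR155HG and MIR17HG, which were lower, and the upstream MEG3 probe, which was higher. Being lower without overlap was thus seen for 3 of 9 members and for 10.1% of all tested probes. The sign of the difference was the same in both experiments for 9 of 9 members, against 51% of all tested probes, and 6 of 9 were lower in both, against 21.7%. Several of these differences were close to 0, and with scaling to the 75th percentile or normexp background correction GAS5 changed sign between experiments, as SNHG3 did with normexp. The median log2 difference of the 9 was -0.087, and that of all tested probes was 0.0098. For 1 probe, an exact permutation test (two-sided) cannot give a p below 0.333 with so few arrays.

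**Figure D1:**
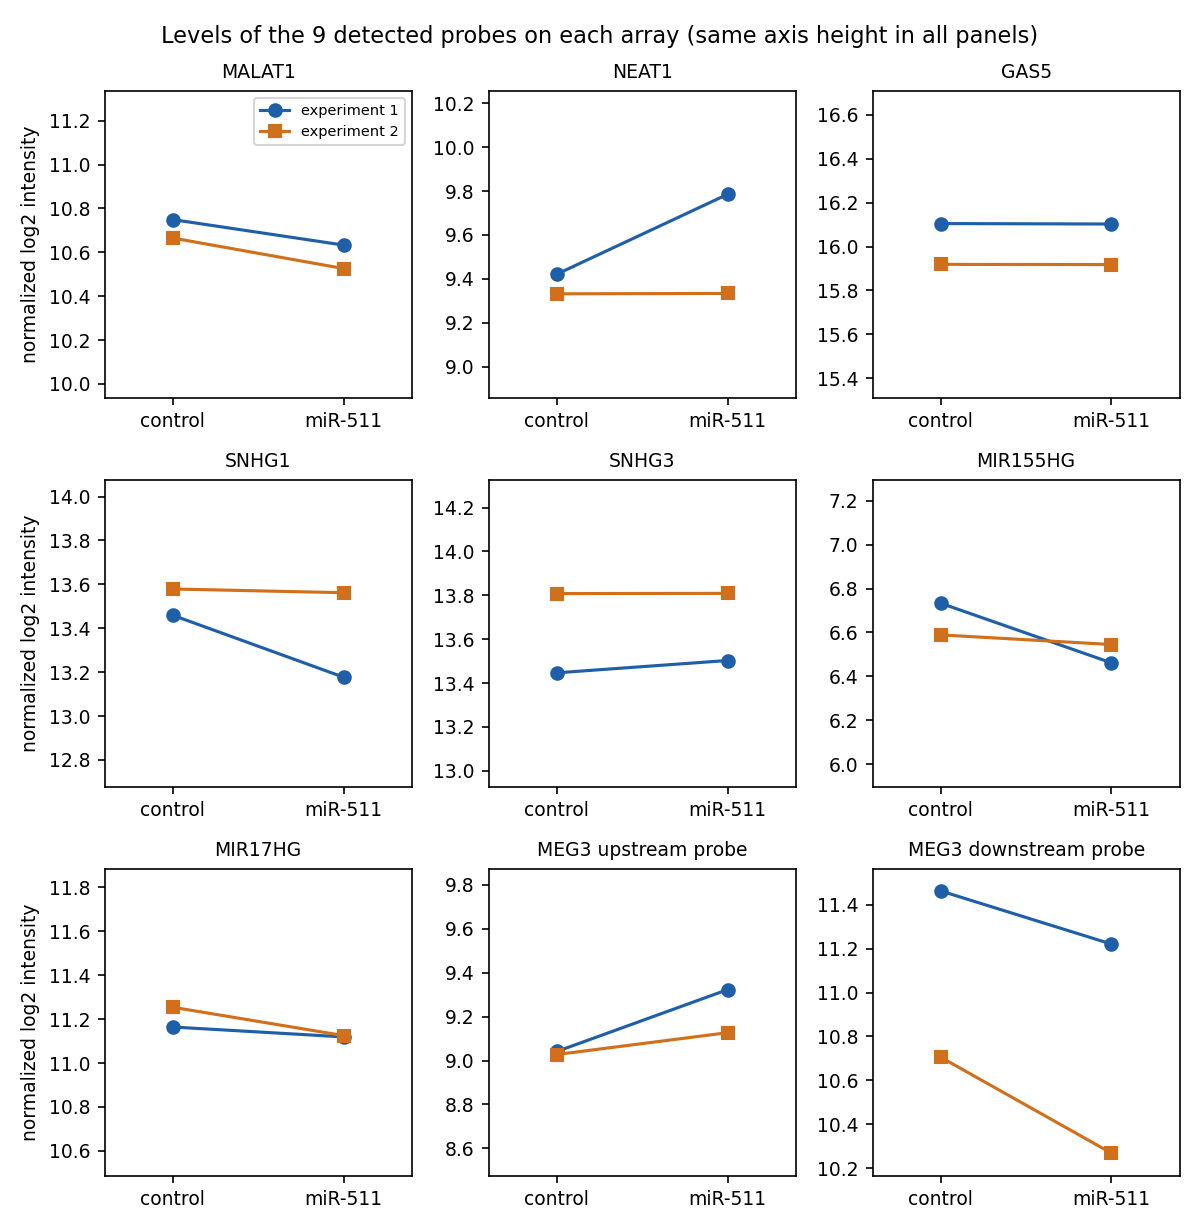
Normalized log2 intensity (y axis) of the 9 detected probes under the control and miR-511 mimics (x axis), with 1 point per array and a line joining the arrays of an experiment. The y axes cover the same height but start at different levels, and the MALAT1, MIR155HG, MIR17HG and upstream MEG3 panels are those in which the treatments do not overlap.

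MALAT1 differed by almost the same amount in both experiments. Its normalized log2 level was 10.63 and 10.53 with the miR-511 mimic and 10.75 and 10.67 with the control, in experiments 1 and 2. Both miR-511 arrays lay below both control arrays, although under normexp correction, where the differences were -0.040 and -0.089, the treatments overlapped. The log2 difference was -0.12 in experiment 1 and -0.14 in experiment 2, with a mean of -0.13 ± 0.10 (SE, n = 2 arrays per treatment). The 95% confidence interval was -0.40 to 0.15 and the limma adjusted p was 1. Here and below, the SE and interval come from limma and the spread of arrays within a treatment. Unless the block is named, they ignore the pairing of arrays by experiment. They are therefore not the spread of the differences of the 2 experiments.

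A measure of spot noise was available from 999 probes that are printed 10 times on each array. Among those of similar brightness, the SD of the copies within an array was 0.055 to 0.10 on the log2 scale, which gives an SD of 0.078 to 0.14 for a difference of 2 single spots. It leaves out the spread between separately transfected cells, so a difference beyond it does not by itself show an effect of the mimic. The differences of 3 of 9 members (MALAT1 and both MEG3 probes) exceeded 1 such SD in both experiments, against 21.3% of the 21900 tested probes printed once. In at least 1 experiment 7 of 9 did, all but GAS5 and SNHG3, against 66.2%. For the 4 members without overlap, the gap between the nearest arrays of the treatments was 0.032 to 0.086, which was under the SD of each.

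NEAT1, the architectural RNA of paraspeckles, stood higher on 1 array. Its probe (chr11:65206777-65206836) read 9.79 and 9.33 on the log2 scale with the miR-511 mimic and 9.42 and 9.33 with the control. The miR-511 array of experiment 1 was the highest, and the other three lay close together, so the treatments overlapped. The log2 difference was 0.36 in experiment 1 and 0.0019 in experiment 2, with a mean of 0.18 ± 0.18 (SE, n = 2) and a 95% interval of -0.32 to 0.68. On that miR-511 array 64.8% of all probes were well above background, against 66.6% to 69.3% on the other three, and the part of this in the NEAT1 difference was not tested.

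The 3 snoRNA hosts were detected on all arrays, and their treatments overlapped. GAS5, a growth-arrest transcript whose introns hold box C/D snoRNAs, read 16.10 and 15.92 with the miR-511 mimic and 16.11 and 15.92 with the control. Its arrays were grouped by experiment and not by treatment. The mean log2 difference was -0.0018 ± 0.13 (SE, n = 2), with a 95% interval of -0.35 to 0.35.

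SNHG1 (chr11:62619573-62619632) read 13.18 and 13.56 with the miR-511 mimic and 13.46 and 13.58 with the control. The miR-511 array of experiment 1 was the lowest, and in experiment 2 the treatments were nearly level. This gave a log2 difference of -0.28 in experiment 1 and -0.016 in experiment 2, with a mean of -0.15 ± 0.17 (SE, n = 2) and an interval of -0.60 to 0.30.

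SNHG3 (chr1:28836041-28836100), host of H/ACA snoRNAs, read 13.50 and 13.81 with the miR-511 mimic and 13.45 and 13.81 with the control. Both arrays of experiment 2 stood above both of experiment 1. The mean log2 difference between mimics was 0.028 ± 0.19 (SE, n = 2), with an interval of -0.48 to 0.54.

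MIR155HG and MIR17HG read lower with the miR-511 mimic in both experiments, by small amounts. The third detected host, MEG3, is described after them. MIR155HG (chr21:26946350-26946409), also known as BIC and induced when myeloid and B cells are activated, read 6.46 and 6.54 with the miR-511 mimic and 6.73 and 6.59 with the control. The treatments did not overlap. Its log2 difference was -0.27 in experiment 1 and -0.044 in experiment 2, with a mean of -0.16 ± 0.11 (SE, n = 2), an interval of -0.45 to 0.13 and a limma adjusted p of 1.

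MIR17HG (chr13:92002596-92002655), the primary transcript of the oncogenic miR-17-92 cluster and a transcriptional target of MYC, read 11.12 and 11.13 with the miR-511 mimic and 11.16 and 11.25 with the control. The treatments again did not overlap. The log2 difference was -0.045 in experiment 1 and -0.13 in experiment 2, with a mean of -0.087 ± 0.094 (SE, n = 2) and an interval of -0.34 to 0.17. The brighter MYC probe differed by 0.081 ± 0.13 (SE, n = 2). MCM7, whose intron holds the related miR-106b-25 cluster, differed by 0.066 ± 0.096 at its brighter probe and by -0.13 ± 0.14 at its dimmer one.

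**Figure D2:**
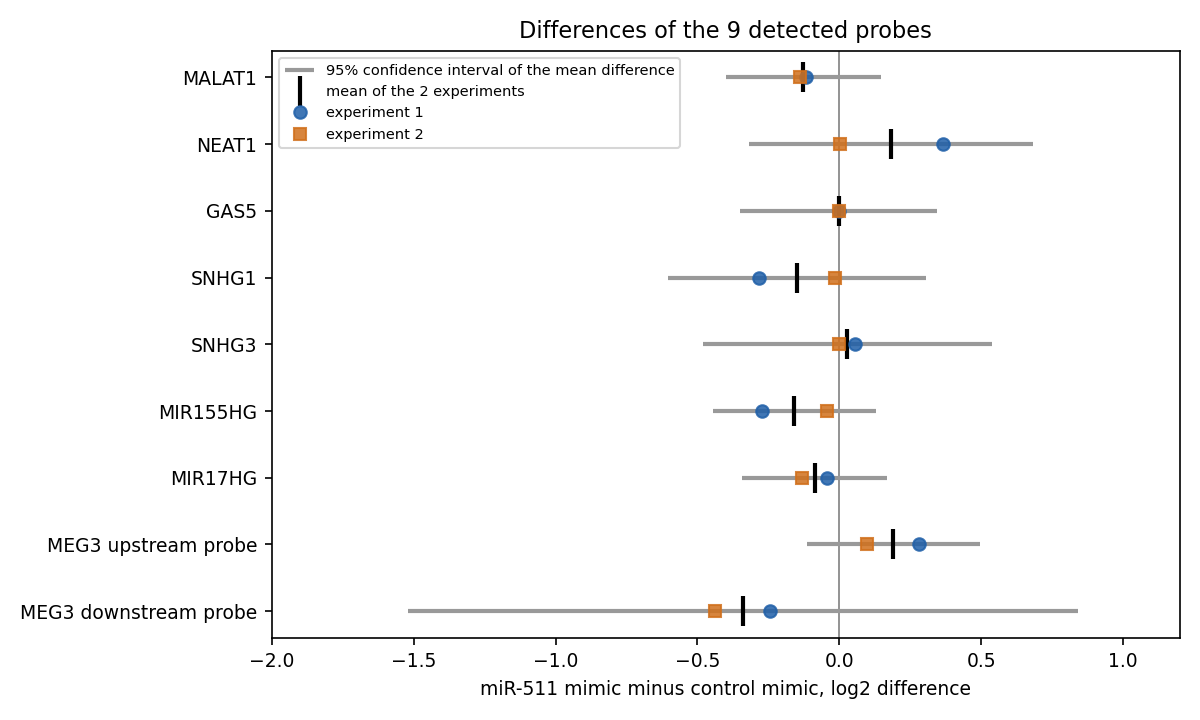
Log2 difference between the miR-511 and control mimics (x axis) for each of the 9 detected probes (y axis), as the value of each experiment, the mean of both and the 95% confidence interval from limma. The intervals, from the fit without the experiment as a block, include 0 for all 9 probes, and that of the downstream MEG3 probe is the widest, from -1.52 to 0.84 (-0.65 to -0.034 with the block).

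MEG3, an imprinted transcript with tumour suppressor activity from the DLK1 locus, gave opposite differences at its probes. The upstream probe read 9.32 and 9.13 with the miR-511 mimic and 9.04 and 9.03 with the control. Both miR-511 arrays were higher than both control arrays. The log2 difference was 0.28 in experiment 1 and 0.099 in experiment 2, with a mean of 0.19 ± 0.11 (SE, n = 2), an interval of -0.12 to 0.50 and a limma adjusted p of 1.

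The downstream MEG3 probe, the one with AATAAA 5 bases from its end, read 11.22 and 10.27 with the miR-511 mimic and 11.46 and 10.71 with the control. The miR-511 array was the lower in each experiment, but both arrays of experiment 2 lay below both of experiment 1, so the treatments overlapped. The log2 difference was -0.24 in experiment 1 and -0.44 in experiment 2. The mean was -0.34 ± 0.43 (SE, n = 2), with a limma adjusted p of 1. It ran from -0.82 without the miR-511 array of experiment 1 to 0.14 without that of experiment 2, and was 0.039 without the control array of experiment 1. With the experiment as a replicate block, this probe was the 1 member of 9 past the unadjusted threshold, against 3.95% of all tested probes, and its limma adjusted p was 0.969. Its 95% interval in that fit was -0.65 to -0.034.

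The probes are 31312 bases apart on the plus strand of chromosome 14. After these values were seen, their contrast was taken within each array, as the upstream minus the downstream log2 intensity. It was -1.90 and -1.14 with the miR-511 mimic and -2.42 and -1.68 with the control, in experiments 1 and 2. The contrast was therefore 0.52 higher with the miR-511 mimic in experiment 1 and 0.54 higher in experiment 2, a mean ratio of 1.44-fold. The SD of such a value from spot noise was 0.13. From experiment 1 to experiment 2 the contrast rose by more, 0.76 with the miR-511 mimic and 0.74 with the control. Only the change of this contrast can be read, since the brightness of different probes is not on a common scale. Of 3137 genes with exactly 2 tested probes, 49 (1.56%) had probes whose differences lay over 0.5 apart the same way in both experiments. MEG3 was chosen for its values, so this share is a description, and the limit of 0.5 lies just under its own values. In experiment 1 MEG3 fell below it with 75th percentile scaling (0.49) and with normexp correction (0.47).

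**Figure D3:**
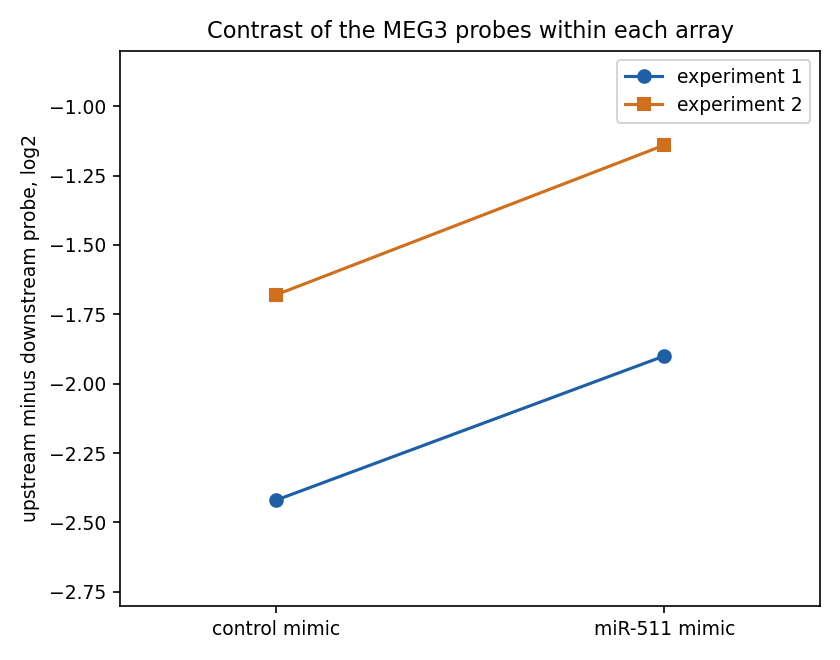
Upstream minus downstream MEG3 log2 intensity (y axis) on each array under the control and miR-511 mimics (x axis), with a line for each experiment. The lines are nearly parallel, 0.52 higher with the miR-511 mimic in experiment 1 and 0.54 in experiment 2.

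The downstream MEG3 probe also differed most between the experiments among the 9 members. It was lower in experiment 2 than in experiment 1 by 0.95 with the miR-511 mimic (log2 difference -0.95) and by 0.76 with the control (log2 difference -0.76), and the mean of -0.86 corresponds to 1.81-fold. The upstream probe differed by only -0.11. In the fit with both terms, which was added after the data were seen, 2 of 9 members passed the unadjusted threshold for the experiment, against 11.6% of all tested probes. These were the downstream MEG3 probe (limma adjusted p = 0.388) and SNHG3, which was 0.33 higher in experiment 2 (limma adjusted p = 0.406). No member passed after adjustment.

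Other genes of the same kinds and pathways were counted in lists beside the members. Of 121 such genes 103 had a probe and 93 were tested, and 0 of the 93 passed the unadjusted threshold, against 2.2% of all tested probes. Among 10 other snoRNA hosts 2 values were above and 8 below 0, with a median log2 difference of -0.073 and a range of -0.13 to 0.015. Among 10 other long noncoding RNAs 4 were above and 6 below 0 (median -0.041), and among 6 noncoding microRNA hosts 3 were above and 3 below (median 0.0042). The 25 protein-coding microRNA hosts split into 13 above and 12 below 0, with a median of 0.010.

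The partner proteins of the members were likewise near 0. Of 12 paraspeckle proteins 5 were above and 7 below 0 (median -0.012), and NONO and SFPQ, which bind NEAT1 and build the paraspeckle core, differed by -0.0060 ± 0.089 and 0.038 ± 0.11 (SE, n = 2). Of 12 nonsense-mediated decay factors 7 were above and 5 below 0 (median 0.025), with the helicase UPF1 at -0.0042 ± 0.13. Of 11 components of Polycomb repressive complex 2, 8 were above and 3 below 0 (median 0.026), with the methyltransferase EZH2 at -0.099 ± 0.12. Of 7 tested neighbours and regulators 5 were above and 2 below 0 (median 0.059).

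DLK1, the paternally expressed partner of MEG3, differed by 0.16 ± 0.15 (SE, n = 2) at its brighter probe and by -0.34 ± 0.29 at its dimmer one. At the brighter probe the sign of the log2 difference was not shared, with 0.40 in experiment 1 and -0.072 in experiment 2. IGF2, the partner of H19, was like H19 not detected. No probe carried the name MRC1, the gene whose intron holds MIR511.

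**Figure D4:**
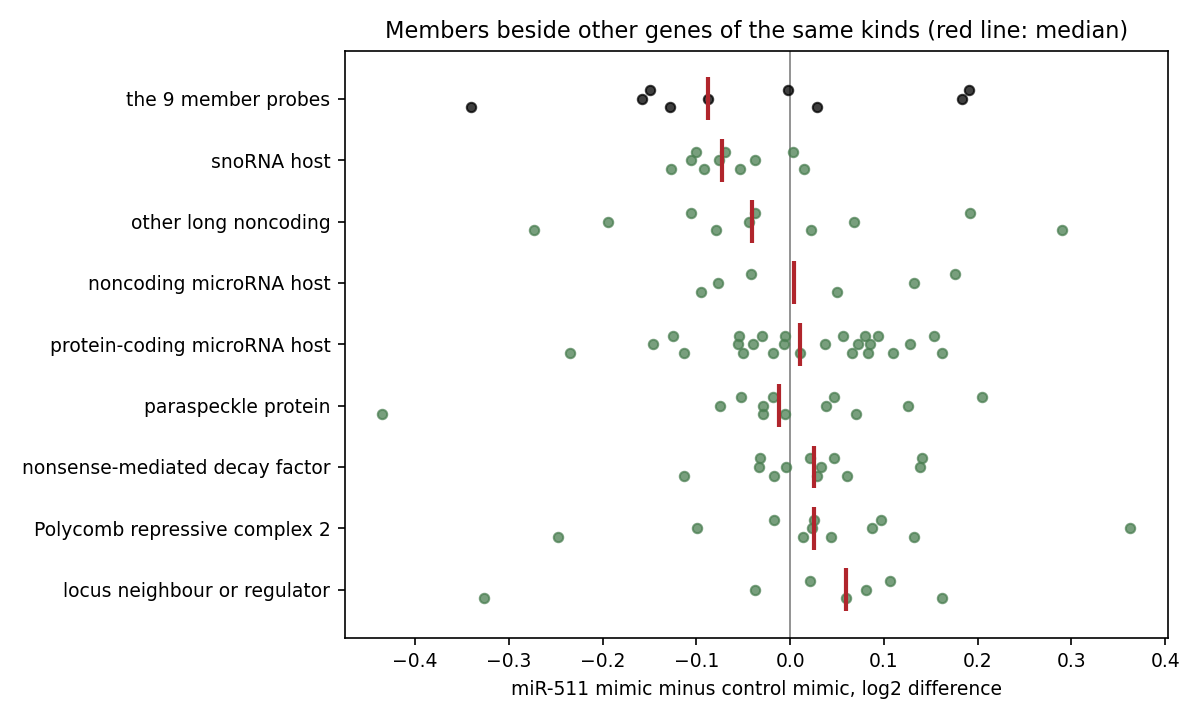
Mean log2 difference between the miR-511 and control mimics (x axis) for the 9 member probes and for the tested genes of 8 lists (y axis), with 1 point per probe or gene and the median as a red line. The medians of the lists lie between -0.073 and 0.059, and the median of the members is -0.087.

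The labelled cell type was checked against its markers. Of 12 myeloid markers 10 had a probe and 9 of these were detected on all 4 arrays, and 0 passed the unadjusted threshold between the mimics. Of 15 markers of other cell types 6 were well above background on all 4 arrays, 6 were not on any, and 0 passed that threshold. The epithelial markers EPCAM, KRT19 and CDH1 and the collagens COL1A1 and COL1A2 were among the undetected.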

How the data were processed

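Cy3-labelled cRNA of total RNA was hybridized to Agilent 4x44K v2 arrays. The deposited scanner files hold intensity values that the authors obtained with Agilent Feature Extraction (10.5.1.1 in the submitters' processing notes, a later version in the file headers), with background subtracted and trends within the array removed. The deposited table holds log2 intensities that the authors quantile normalized, and it served as an alternative. Here, processed intensities were log2 transformed and quantile normalized, control and marked spots were left out, and copies of a probe were averaged. Probes well above background on both arrays of a treatment were tested with limma 3.58.1 in R 4.3.3, and p-values were adjusted by Benjamini-Hochberg over all 22638. The experiment numbers in the labels pair the arrays, and deviations of same-experiment arrays from their treatment means correlated (r = 0.271). The study's methods name no block, so it was an alternative. The script was tested on simulated data with differences far larger than those of the members and no effect of the experiment. That test does not bear on differences as small as these. Every detected member was named, as were 9 chosen companions, and the brightest probe of a companion gene was followed. Some other companions were named after their values were seen, and some are not reported here by name. Members and lists (snoRNA hosts, other noncoding RNAs, microRNA hosts, paraspeckle, decay and Polycomb proteins, neighbours, markers) were chosen with earlier results of these data known. The number of arrays limits the precision.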

Additional observations from a re-analysis of the deposited data

How the results depend on the processing

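Of the 9 tested members, 0 passed the unadjusted threshold with 75th percentile scaling, normexp correction, no filter on dim probes or a stricter filter. The count was also 0 with marked spots kept, the deposited table or an intensity trend. An ordinary t-test on the 2 arrays per treatment, without limma, gave 0 as well. With the replicate block 1 passed, the downstream MEG3 probe, and the block changed no other member's call. Leaving out 1 array left a lone array in a treatment, so only log2 differences are given for those fits. That of NEAT1 was 0.41 without the miR-511 array of experiment 2. Of the companions 0 passed in the reported fit and 1 with normexp (EZH1, -0.27). Without the filter 2 passed (MIR99AHG and UCA1, both not well above background on any array), and 6 passed by the ordinary t-test. The probes past the unadjusted threshold on the whole array numbered 498, 265 with normexp, 1029 without the filter and 894 with the block. They numbered 285 with the trend and 708 by the ordinary t-test, and 0 passed after adjustment in any of these. With 1 array left out, the log2 difference changed sign for 5 of the probes: it ran from -0.0431 to 0.409 for NEAT1, -0.342 to 0.0432 for SNHG1, -0.0948 to 0.0912 for GAS5, -0.152 to 0.209 for SNHG3 and -0.816 to 0.136 for the downstream MEG3 probe. The other 4 kept their sign: MALAT1 ran from -0.181 to -0.0742, MIR155HG from -0.23 to -0.0857, MIR17HG from -0.132 to -0.0419 and the upstream MEG3 probe from 0.0925 to 0.289. The cause was not tested. Such a fit assumes that the lone array varies like the others. The MEG3 probe contrast, an alternative set chosen after seeing the data, lay between 0.468 and 0.524 in experiment 1 and 0.511 and 0.541 in experiment 2 across 5 ways of processing.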

Other observations

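Some genes printed within 50 kb of a member probe were looked up after the member values were seen, on the hg19 positions of the scanner files, and none is a test of a locus. The SNORA73A probe, for a snoRNA carried by SNHG3, lies 2017 bases from the SNHG3 probe and was well above background on all 4 arrays, with a log2 difference of 0.029 ± 0.10 (SE, n = 2). The SNORD22 probe, for a snoRNA carried by SNHG1, lies 85 bases from the SNHG1 probe and was not detected, meaning well above background on 0 of the 4 arrays. RCC1, the nucleotide exchange factor of Ran and the gene beside SNHG3, differed by 0.33 ± 0.12 (SE, n = 2), with 0.35 in experiment 1 and 0.32 in experiment 2, and did not pass the unadjusted threshold.

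Downstream of MEG3, the noncoding MEG8 differed by -0.19 ± 0.33 (SE, n = 2), with 0.0097 in experiment 1 and -0.40 in experiment 2, and the imprinted coding gene RTL1 was not detected. Around the undetected HOTAIR, HOXC11 and HOXC12 were not detected either, whereas HOXC9 and HOXC10 were well above background on all 4 arrays, with log2 differences of -0.19 ± 0.35 and -0.042 ± 0.20 (SE, n = 2). Near the undetected H19, MRPL23 was well above background on all 4 arrays and differed by 0.011 ± 0.10.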
